A study of Mus musculus with 16 samples.

Results

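The chromatin of 9 genes whose products mark hematopoietic stem cells (HSCs) was described in young and aged mice, out of 21851 protein-coding genes. The genes were taken as a list: Cd34, Procr, Ly6a, Slamf1, Cd48, Fgd5, Ctnnal1, Thy1 and Esam. All 9 were found in the GENCODE M21 annotation of the mouse genome build mm10, and the peaks lying in each gene body and 5 kb on either side, here called the window, were collected. Promoters reached 1 kb to each side of the start sites of coding transcripts. Chromatin immunoprecipitation followed by sequencing (ChIP-seq) had been carried out for 3 histone marks on bone marrow HSCs of C57BL/6 mice, at 10 weeks (Young) and at 20 months (Aged), from animals that were pooled before sorting. By the labels the sorted cells were positive for Sca-1, c-kit and CD150, and negative for lineage markers, IL-7, CD34, CD48 and Flt3. Each mark had 2 libraries per age and the input had 2 per age, which makes 16, and the peaks had been deposited as 1 pooled list per mark and age. No spread between replicates could therefore be measured, no difference was tested, and each comparison below sets 1 list beside another.

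HSCs are rare cells that renew themselves and give rise to all blood lineages, and they are isolated by the proteins on their surface. Among the 9 genes, Ly6a encodes Sca-1 and Slamf1 encodes CD150, both present on the sorted cells. Cd34 encodes a sialomucin and Cd48 encodes a ligand of the SLAM family, and cells carrying either protein were sorted out. Procr encodes the endothelial protein C receptor, Esam an adhesion molecule shared with endothelium, and Thy1 the glycoprotein CD90. Fgd5, a guanine nucleotide exchange factor, and Ctnnal1, which encodes alpha-catulin, are known as reporter genes for HSCs. H3K4me3 is laid down near the start sites of active genes, whereas H3K27me3 and H2AK119ub1 are placed by the Polycomb repressive complexes PRC2 and PRC1.

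H3K4me3 was the mark found most often at these genes. In the young list 4 of the 9 promoters carried a peak (Cd34, Procr, Fgd5 and Esam), beside 33.8% of all protein-coding genes. In the aged list 4 of the 9 carried a peak (Procr, Fgd5, Ctnnal1 and Esam), beside 23.3% of all genes. Among the 5 marked genes, Procr, Fgd5 and Esam were marked in both lists, Cd34 in the young list only and Ctnnal1 in the aged list only. Of the genes with a promoter peak in the young list, 51.8% also had 1 in the aged list, against 3 of 4 members. Of the genes with a promoter peak in the aged list, 75.2% also had 1 in the young list, against 3 of 4 members. The number of members is too small to set these shares apart from those of all genes.

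Of the 9 promoters, that of Thy1 carried Polycomb marks. H3K27me3 lay at the promoter of Thy1 in the young list (1 of 9, beside 16.0% of all genes) and at no promoter in the aged list (0 of 9, beside 8.24%). H2AK119ub1 lay at no promoter in the young list (0 of 9, beside 1.91%) and at the promoter of Thy1 in the aged list (1 of 9, beside 14.0%). H3K4me3 together with a Polycomb mark was listed at 0 of the 9 promoters in both ages, beside 3.06% (Young) and 3.33% (Aged) of all genes. With 9 genes these counts cannot be set apart from the shares of all genes.

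Over the wider windows the H3K4me3 and H3K27me3 counts changed little, and H2AK119ub1 was found at further genes. H3K4me3 peaks were found at 5 of 9 genes in the young list, with Slamf1 added (40.6% of all genes), and at 4 of 9 in the aged list (29.0%). H3K27me3 was found at 1 of 9 in the young list (27.8% of all genes) and at 0 of 9 in the aged list (16.5%). H2AK119ub1 was found at 1 of 9 in the young list, Fgd5 (5.99% of all genes), and at 2 of 9 in the aged list, Cd48 and Thy1 (29.0%). As at the promoters, 9 genes are too few to set these counts apart from the shares of all genes. The gene bodies of the members had a median length of 22.5 kb, against 17.4 kb for all genes.

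**Figure D1:**
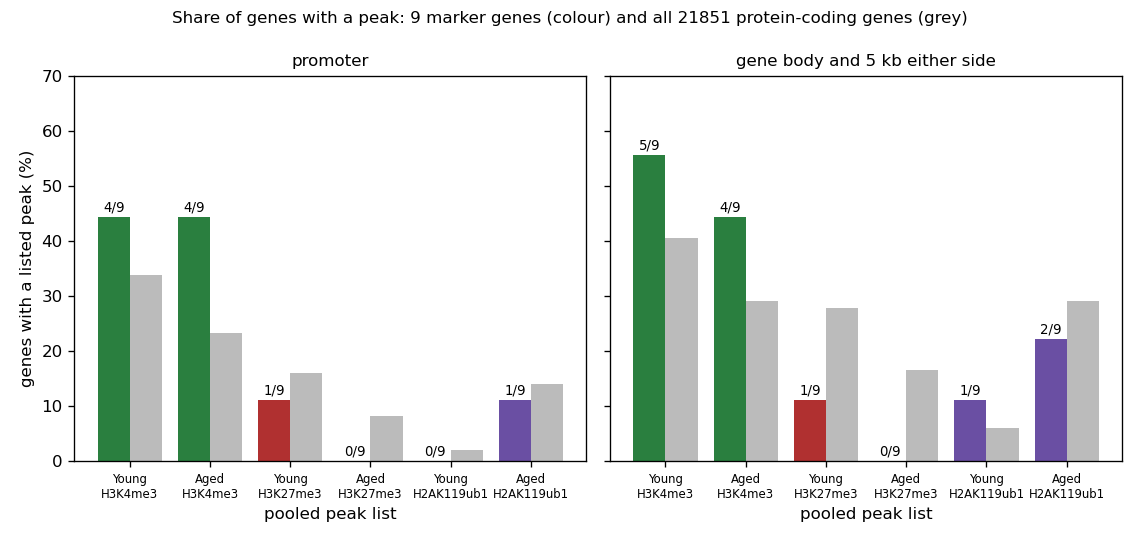
Percentage of genes with a listed peak at a promoter (left) and in the gene body with 5 kb either side (right), for the 9 marker genes (coloured bars, with their number) and for all protein-coding genes (grey bars), in each of the 6 pooled lists. H3K4me3 reached 4 or 5 of the 9 genes, and the Polycomb marks 0 to 2 of the 9.

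A gene without a listed peak cannot be taken as free of the mark. Of 12 genes active in most cells, only 5 had a promoter H3K4me3 peak in the young list and 5 in the aged list. Among the 12, Actb was marked in both lists and Gapdh in the young list only. The lists also differ in length, with 11371 young and 6723 aged H3K4me3 peaks, 63142 and 20419 H3K27me3 regions, and 2593 and 17768 H2AK119ub1 regions. For H3K4me3 the reads at each summit and the local background could be recovered from the fold enrichment and the p-value of the peak. The lowest background of a list is its genome-wide depth per base, which came to 3.70 reads (Young) and 3.52 reads (Aged).

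In all, 18 peaks lay in the 9 windows, 7 and 6 of them H3K4me3 peaks of the young and aged lists. The 13 H3K4me3 peaks were 205 to 414 bp long and had 15 to 26 reads at the summit, with a median of 20 in the young list and 17.5 in the aged list. The medians of the complete lists were 20 and 19 reads. By q-value they ranked from 4.36% to 96.9% of the way down the young list and from 15.4% to 89.3% down the aged list.

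**Figure D2:**
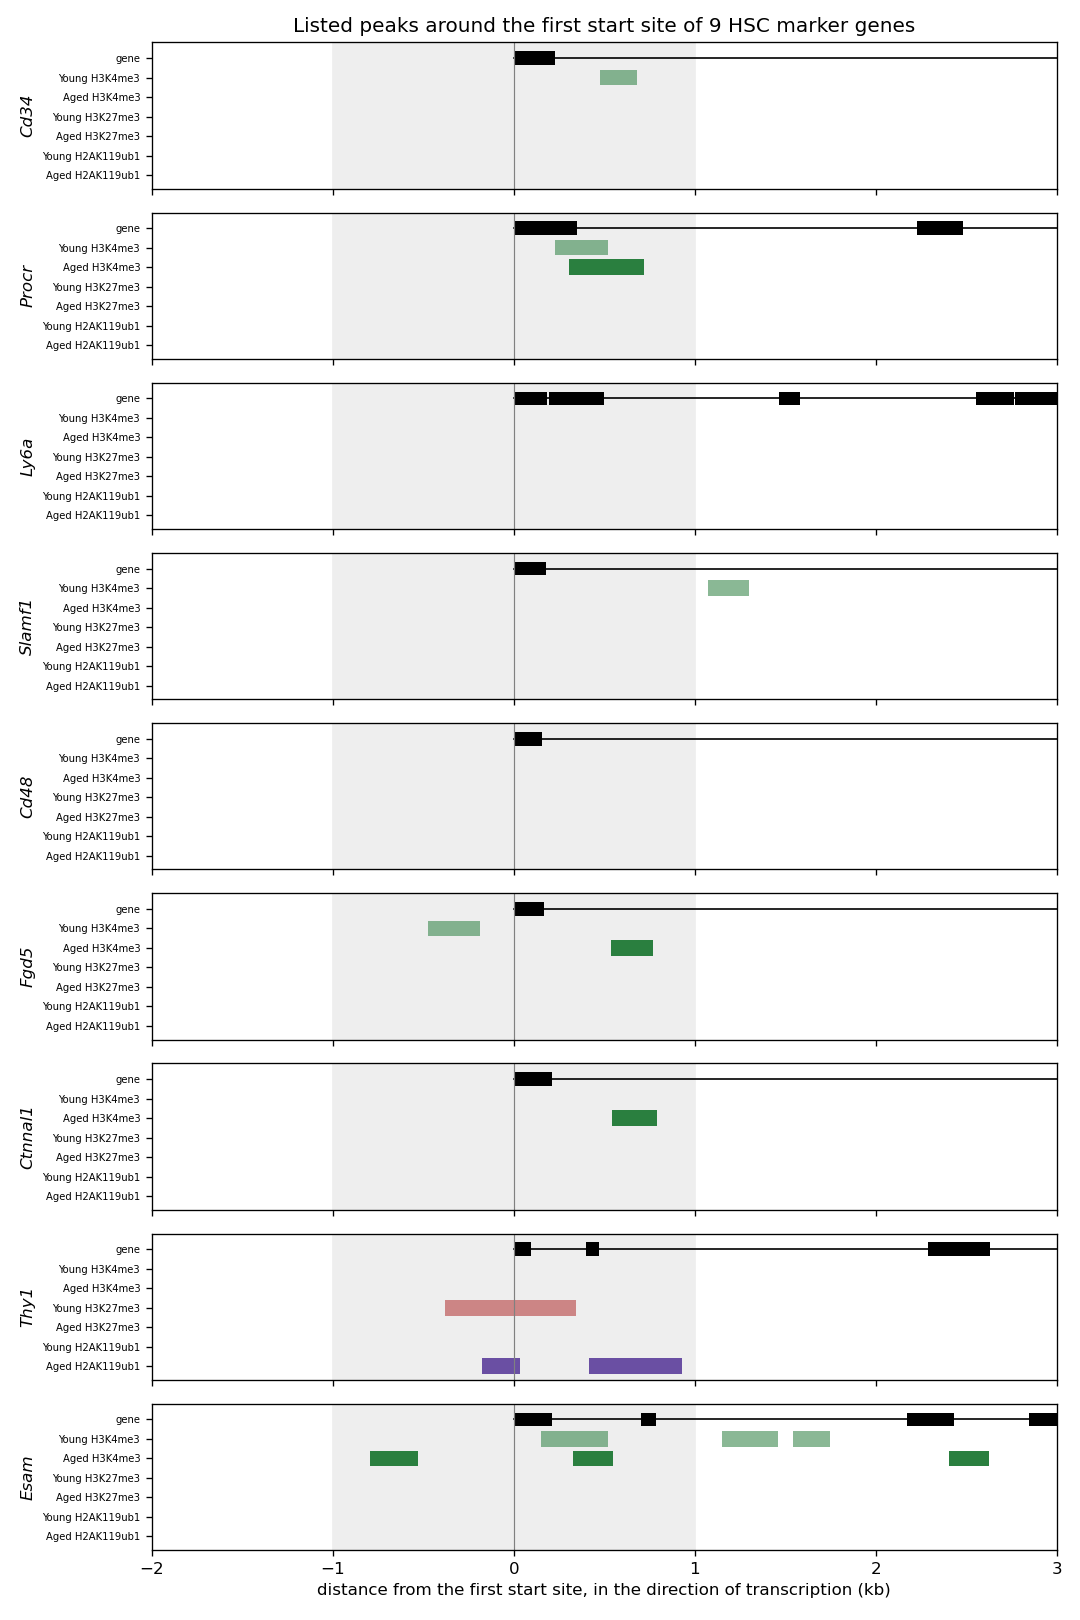
Maps of the 9 genes from 2 kb before to 3 kb after the first start site, in the direction of transcription (x axis, kb), with coding and untranslated exons in black and the peaks of each list in a row of their own (light, Young; dark, Aged). The grey band marks 1 kb either side of the first start site. H3K4me3 peaks lay beside the start sites of Cd34, Procr, Slamf1, Fgd5, Ctnnal1 and Esam, and Polycomb regions beside that of Thy1. The H2AK119ub1 regions inside Fgd5 and Cd48 lie beyond the plotted range.

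The stretches of sequence under these peaks are given here from the RefSeq copy of the same assembly, 5′ to 3′ on the strand of the gene, with each CpG dinucleotide in capitals, since H3K4me3 is known to lie mostly over CpG-rich promoters. For Procr and Esam the bases common to the young and aged H3K4me3 peaks are shown, for Fgd5 both peaks, since they do not overlap, and for Cd34 and Ctnnal1 the peak of the single list that has it. For Thy1 the bases upstream of the first start that lie in both its young H3K27me3 and its aged H2AK119ub1 region are shown. For Ly6a, which has no peak, the 250 bases before its first start stand for comparison.
Procr, young and aged H3K4me3, chr2:155751422-155751636, plus strand: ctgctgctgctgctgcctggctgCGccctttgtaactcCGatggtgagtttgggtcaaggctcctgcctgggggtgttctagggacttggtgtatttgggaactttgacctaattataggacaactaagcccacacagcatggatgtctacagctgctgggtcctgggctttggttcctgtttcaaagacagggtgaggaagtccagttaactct
Esam, young and aged H3K4me3, chr9:37528404-37528596, plus strand: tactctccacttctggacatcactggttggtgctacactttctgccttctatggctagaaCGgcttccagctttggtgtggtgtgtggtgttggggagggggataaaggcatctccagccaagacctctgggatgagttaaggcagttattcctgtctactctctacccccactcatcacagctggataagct
Fgd5, young H3K4me3, chr6:91978404-91978693, plus strand: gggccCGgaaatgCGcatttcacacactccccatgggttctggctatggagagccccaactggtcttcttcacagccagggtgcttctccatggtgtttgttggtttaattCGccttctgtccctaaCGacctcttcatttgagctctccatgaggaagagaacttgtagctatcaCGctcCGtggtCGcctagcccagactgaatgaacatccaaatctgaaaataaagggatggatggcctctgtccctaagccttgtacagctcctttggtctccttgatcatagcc
Fgd5, aged H3K4me3, chr6:91979414-91979647, plus strand: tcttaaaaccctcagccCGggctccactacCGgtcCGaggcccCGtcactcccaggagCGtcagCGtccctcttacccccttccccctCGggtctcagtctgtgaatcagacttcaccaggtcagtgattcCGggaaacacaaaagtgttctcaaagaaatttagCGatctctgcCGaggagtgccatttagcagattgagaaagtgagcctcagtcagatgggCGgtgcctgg
Cd34, young H3K4me3, chr1:194939297-194939501, plus strand: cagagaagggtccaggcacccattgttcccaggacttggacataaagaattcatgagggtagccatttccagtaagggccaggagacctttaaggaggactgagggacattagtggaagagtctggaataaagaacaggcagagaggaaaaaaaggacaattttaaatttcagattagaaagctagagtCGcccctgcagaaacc
Ctnnal1, aged H3K4me3, chr4:56864397-56864644, minus strand: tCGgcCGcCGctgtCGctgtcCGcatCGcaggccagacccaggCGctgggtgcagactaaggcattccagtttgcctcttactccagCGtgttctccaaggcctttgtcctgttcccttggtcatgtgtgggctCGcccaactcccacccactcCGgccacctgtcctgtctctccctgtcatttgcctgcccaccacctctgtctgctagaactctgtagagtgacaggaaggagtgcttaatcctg
Thy1, young H3K27me3 and aged H2AK119ub1, chr9:44043210-44043383, plus strand: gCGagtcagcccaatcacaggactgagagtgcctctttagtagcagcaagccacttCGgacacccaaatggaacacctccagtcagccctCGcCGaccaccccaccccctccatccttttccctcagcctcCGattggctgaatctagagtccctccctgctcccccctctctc
Ly6a, no peak, chr15:74998032-74998281, minus strand: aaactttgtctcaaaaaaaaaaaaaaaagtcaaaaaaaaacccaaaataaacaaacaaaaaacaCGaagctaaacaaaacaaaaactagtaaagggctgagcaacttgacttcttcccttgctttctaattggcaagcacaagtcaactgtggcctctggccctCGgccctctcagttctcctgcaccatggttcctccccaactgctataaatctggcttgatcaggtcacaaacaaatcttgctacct

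The stretches differed in CpG content. The aged peaks of Fgd5 and Ctnnal1 held 11 CpGs in 234 bp and 10 CpGs in 248 bp, and the young peak of Fgd5 held 7 in 290 bp. The Thy1 stretch held 5 CpGs in 174 bp. By contrast the bases shared by the young and aged H3K4me3 peaks held 2 CpGs in 215 bp at Procr and 1 in 193 bp at Esam. The young peak of Cd34 held 1 in 205 bp. These were as few as the 2 in the 250 bp before Ly6a. CpGs in the rest of the Procr and Esam peaks were not counted.

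Procr (ENSMUSG00000027611.12; chromosome 2, 155751117 to 155755471, plus strand) was the simplest case of a gene marked at both ages. Its young H3K4me3 peak ran from 155751345 to 155751636, had a fold enrichment of 4.30 over background and reached 22 reads at the summit (exact Poisson 95% interval 13.8 to 33.3, counting error only). The aged peak ran from 155751422 to 155751835, with 4.42-fold enrichment and 19 reads (11.4 to 29.7). The counting intervals of the 2 summits overlapped over most of their length. Both peaks began after the start site, at 228 bp and 305 bp, and shared 215 bp over the end of the first exon and the first intron. The shared stretch was 73.6% of the young and 51.9% of the aged peak. No Polycomb region of any list lay in the window of Procr. The nearest, an aged H2AK119ub1 region, was 7.41 kb from the start site.

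Esam (ENSMUSG00000001946.14; chromosome 9, 37528078 to 37538319, plus strand) carried the most H3K4me3 peaks of the 9 genes, 3 in each list. Windows with 3 or more peaks were found for 5.68% of all genes in the young list and 1.83% in the aged list. The first young peak, 151 to 518 bp after the start site over the first exon and intron, had 3.17-fold enrichment and 21 reads (13.0 to 32.1), over a raised local background of 5.94 reads. The second young peak, 37529228 to 37529536 in an intron, was the strongest peak at any of the 9 genes, with 5.53-fold enrichment and 26 reads (17.0 to 38.1). It ranked 496 among the 11371 young H3K4me3 peaks, within the top 4.36%. The third young peak, 37529622 to 37529827, had 3.83-fold enrichment and 18 reads (10.7 to 28.4).

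In the aged list Esam was marked over a broader stretch but by separate peaks. An upstream peak, 37527281 to 37527549, ended 529 bp before the start site and had 3.98-fold enrichment and 17 reads (9.90 to 27.2). A peak in the first intron, 37528404 to 37528628, had 4.86-fold enrichment and 21 reads (13.0 to 32.1). The last, 37530483 to 37530703, lay 2405 bp after the start site, with 3.98-fold enrichment and 17 reads (9.90 to 27.2). Only the peaks of the first intron overlapped between the ages, by 193 bp, which was 52.4% of the young and 85.8% of the aged peak. The strongest young peak of Esam had no aged peak over it, the nearest aged peak being 599 bases away.

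Fgd5 (ENSMUSG00000034037.14; chromosome 6, 91978878 to 92076004, plus strand) was also marked in both lists, but at different positions. The young peak, 91978404 to 91978693, lay wholly upstream and ended 185 bp before the start site, with 3.51-fold enrichment and 16 reads (9.15 to 26.0). The aged peak, 91979414 to 91979647, lay wholly in the first intron from 536 bp after the start site, with 3.54-fold enrichment and 15 reads (8.40 to 24.7). The peaks were separated by 720 bp and flanked the start site from either side. Among the 3825 genes with a promoter peak in both lists, the young and aged peaks overlapped at 80.4%, so non-overlap as at Fgd5 was the less common arrangement. Both peaks were among the weakest of their lists, as 3.57% of young and 0.833% of aged H3K4me3 peaks had fewer summit reads.

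Fgd5 also held the only young H2AK119ub1 region in the 9 windows. It ran from 91994259 to 91994623, 365 bp within an intron and 15.4 kb after the first start site, with an average enrichment of 3.14-fold. No aged H2AK119ub1 region lay in the window, and no H3K27me3 region lay within 104 kb of a start site in either list.

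Cd34 (ENSMUSG00000016494.9; chromosome 1, 194938819 to 194961279, plus strand) was marked by H3K4me3 in the young list only. The peak, 194939297 to 194939501, lay 478 to 682 bp after the first start site, in the first intron of the coding transcripts, which a non-coding transcript of the gene retains. It had 4.37-fold enrichment and 20 reads (12.2 to 30.9), against a local background of 3.80 reads. Its summit count was the median of the young list. In the aged list no H3K4me3 peak lay nearer than 37.8 kb to a start site of Cd34. The nearest Polycomb region of any list, of aged H3K27me3, was 302 kb from a start site, so this gene, for whose protein the cells were sorted as negative, lay far from listed Polycomb regions at both ages.

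Ctnnal1 (ENSMUSG00000038816.14; chromosome 4, 56810935 to 56865188, minus strand) showed the opposite pattern. An aged H3K4me3 peak, 56864397 to 56864644, lay in an intron 544 to 791 bp after the first start site, with 4.20-fold enrichment and 18 reads (10.7 to 28.4). In the young list the nearest H3K4me3 peak was 62.6 kb from its start sites. No Polycomb region of any list lay in its window.

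The genes of the 2 SLAM proteins lie side by side on chromosome 1, with 61.9 kb between the gene bodies. Slamf1 (ENSMUSG00000015316.11; 171767127 to 171801184, plus strand) carried a young H3K4me3 peak, 171768199 to 171768425, in its first intron. The peak began 1072 bp after the start site and so fell just outside the promoter as defined here. It had 18 reads (10.7 to 28.4), but a raised local background of 5.94 reads left an enrichment of 2.74-fold, the lowest of the 13 H3K4me3 peaks, and it ranked 11018 among the 11371 young peaks. No aged H3K4me3 peak lay nearer than 259 kb to the start site of Slamf1. Cd48 (ENSMUSG00000015355.13; 171682009 to 171705258, plus strand) carried no H3K4me3 peak, the nearest being 74.5 kb from a start site in the young list and 240 kb in the aged list. An aged H2AK119ub1 region, 171696929 to 171697128, lay in an intron of Cd48, 14.9 kb after its start, with an average enrichment of 2.99-fold. At 200 bp it was the shortest of the 18 peaks and ranked near the bottom of its list (94.4% of the way down).

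Thy1 (ENSMUSG00000032011.5; chromosome 9, 44043384 to 44048579, plus strand) was the only gene of the 9 with a Polycomb region at its promoter, and the mark listed differed between the ages. The young H3K27me3 region, 44043001 to 44043729, covered the first start site from 383 bp before to 345 bp after it, with an average enrichment of 3.21-fold. In the aged list no H3K27me3 region lay nearer than 73.2 kb. The aged list had instead 2 H2AK119ub1 regions at Thy1. The first, 44043210 to 44043417, covered the first start site with 3.82-fold enrichment, and all of its 208 bp lay within the young H3K27me3 region. The second, 44043797 to 44044311, lay 413 to 927 bp after the first start site, with 3.23-fold enrichment. In the young list the nearest H2AK119ub1 region was 40.4 kb away.

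The change in listed marks at Thy1 was shared with many genes. Of the 3506 genes with young promoter H3K27me3, 48.8% also had it in the aged list and 49.1% had aged promoter H2AK119ub1. Those with aged H2AK119ub1 and without aged H3K27me3, as Thy1, made up 18.5%. The lists differ in length, and the H3K27me3 region of Thy1 ranked 24625 by q-value in the young list, beyond the 20419 regions of the aged list. With the same number of regions for both ages it was no longer listed, so that Thy1 had H3K27me3 at neither age, while an aged H2AK119ub1 region at its promoter stayed.

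Ly6a (ENSMUSG00000075602.10; chromosome 15, 74994877 to 74998031, minus strand), whose product Sca-1 defined the sorted cells, had no peak of any list in its window, as did 31.6% of all genes. The nearest H3K4me3 peaks were 29.3 kb from a start site in the young list and 29.5 kb in the aged list, and the nearest Polycomb region was an aged H2AK119ub1 region at 42.7 kb. Ly6a has close relatives in the same gene family, and some reads may match several of them. The study states the default setting of Bowtie2, under which a read with several matches is given a single alignment, and a later filter on such reads is not given in the sources used here. The lack of a peak at Ly6a is therefore uncertain.

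**Figure D3:**
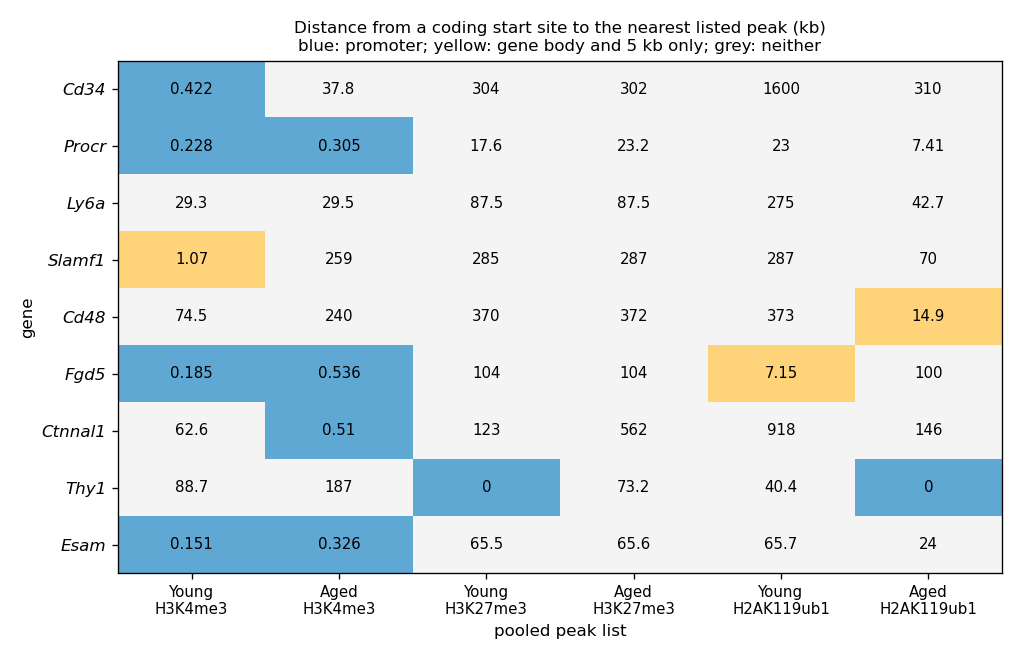
Distance in kb from a protein-coding start site to the nearest peak of each of the 6 pooled lists (columns) for each gene (rows). Blue cells hold a promoter peak, yellow cells a peak in the gene body or within 5 kb of it only, and grey cells neither. Ly6a is grey throughout, and Thy1 is the only gene with a blue cell outside the H3K4me3 columns.

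Set side by side, the summits of the H3K4me3 peaks had overlapping counting intervals throughout. The lowest was the aged peak of Fgd5, with 15 reads (8.40 to 24.7), and the highest the second young peak of Esam, with 26 reads (17.0 to 38.1). All 6 aged peaks stood on the genome-wide background of 3.52 reads. Of the 7 young peaks, the first of Esam and that of Slamf1 stood on a local background of 5.94 reads and the others on 3.80 to 4.35 reads.

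**Figure D4:**
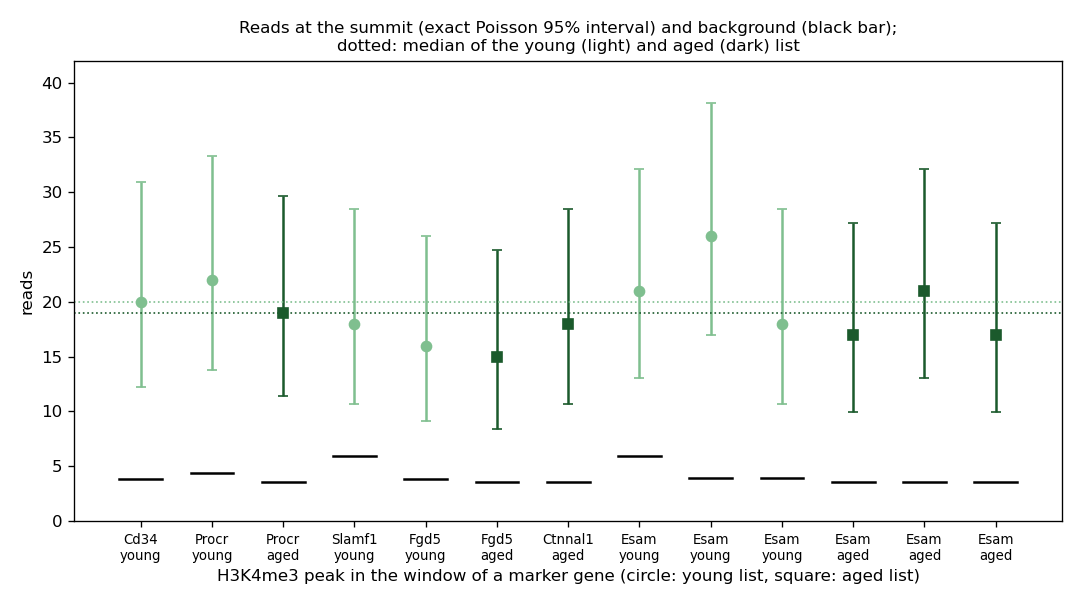
Reads at the summit of each of the 13 H3K4me3 peaks (y axis; circles, Young; squares, Aged) with exact Poisson 95% intervals, the local background of each peak (black bars) and the median summit of each list (dotted lines). Summits lie between 15 and 26 reads, around the list medians of 20 and 19.

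The H3K4me3 peaks lay beside the start sites. Of the 9 H3K4me3 peaks within 1 kb of a first start site, 7 lay wholly after it, 2 wholly before it and 0 over it. Over all genes 62.0% of such peaks lay after the first start site, 29.9% before it and 8.04% over it. The 2 upstream peaks were the young peak of Fgd5 and the first aged peak of Esam.

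Genes with the same promoter peaks over the 6 lists as each member were counted as a measure of likeness. The pattern of Procr, Fgd5 and Esam, H3K4me3 in both lists and no Polycomb region, was that of 3283 genes (15.0%). It was also that of 14 genes in the related lists, which included Ptprc, Mecom, Hlf, Meis1 and Tek, and also Actb and Rpl13a, which are active in most cells. The pattern of Cd34, young H3K4me3 alone, was that of 2817 genes (12.9%), with 11 in the related lists, which included Hoxb5, Tgm2, Gata2, Ly9, Cd84 and Lynx1, and also Gapdh, which is active in most cells. The pattern of Ctnnal1, aged H3K4me3 alone, was less frequent, at 971 genes (4.44%), and it was also that of Kit, Tbp and Sdha. Of these Kit encodes the receptor by which the cells were sorted, and Tbp and Sdha are active in most cells. The pattern of Kit depended on promoter width, as it also had young H3K4me3 with 2.5 kb either side. The pattern of Thy1 was that of 387 genes (1.77%), none of them in the related lists. Ly6a, Slamf1 and Cd48, with no promoter peak, shared this with 9827 genes (45.0%).

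Promoter base composition differed widely among the 9 genes. The observed over expected number of CpGs within 1 kb of the first start site was 0.101 for Ly6a, 0.143 for Slamf1 and 0.254 for Cd48, the 3 lowest of the 9, and none of these promoters had a peak. Procr (0.341), Cd34 (0.353), Thy1 (0.385) and Esam (0.403) lay in the middle of the range, and Fgd5 (0.555) and Ctnnal1 (0.649) had the most of the 9. The median was 0.353 for the 9 genes and 0.484 for all genes. When all genes were ranked by this measure and split into 3 groups of equal size, young H3K4me3 was found at 4.48%, 38.9% and 58.1% of promoters from the lowest to the highest, and aged H3K4me3 at 2.90%, 26.8% and 40.2%. Of the members, 3 fell in the lowest group, with 0 marked in either list. The middle group held 5 members, of which 4 (Young) and 3 (Aged) were marked. Ctnnal1 alone was in the highest group and was marked in the aged list only. These values are a description, and the part of base composition in the listed peaks was not tested.

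**Figure D5:**
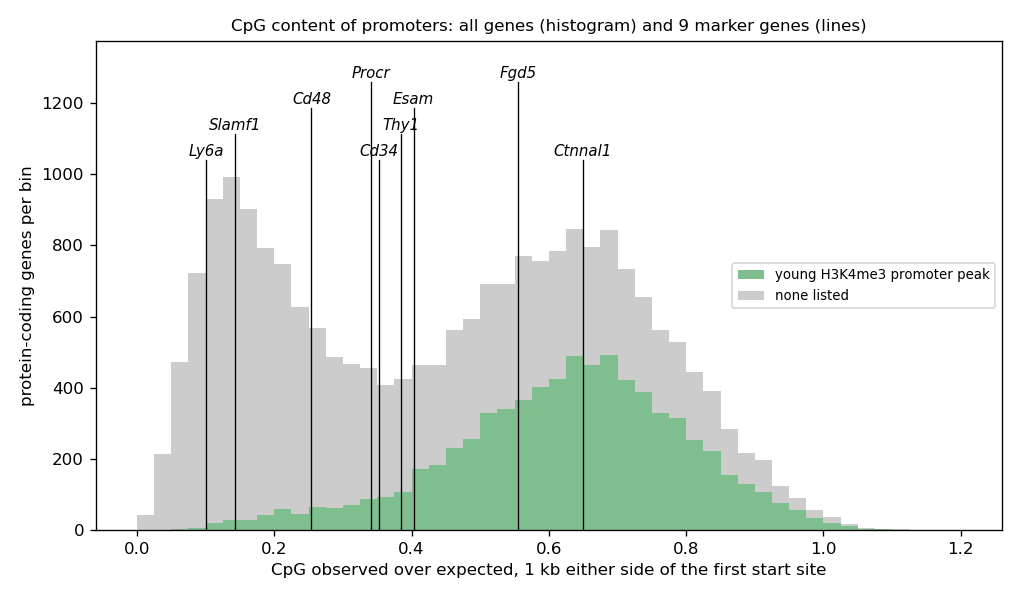
Observed over expected CpG of the promoter (x axis, 1 kb either side of the first start site) for all protein-coding genes (histogram, y axis in genes per bin, with genes holding a young H3K4me3 promoter peak in green) and for the 9 marker genes (vertical lines). Ly6a, Slamf1 and Cd48 lie in the CpG-poor part of the range, where few promoters have a listed peak.

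The H3K4me3 counts depended on the weaker peaks, more so in the young list. When peaks below 4 on the −log10 q-value scale were left out, or with the young list cut to the number of aged peaks, 2 of 9 promoters were marked in the young list (Cd34 and Procr), and Fgd5 and Esam were lost. The aged list kept 3 of 9 under the same q-value cut (Procr, Ctnnal1 and Esam), and Fgd5 was lost. At equal list length it kept its 4. Under either cut Procr alone was marked in both lists. With a promoter of 500 bp either side, 2 of 9 were marked in the aged list (Procr and Esam). The Polycomb regions at Thy1 fell below 4 on that scale in both lists.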

How the data were processed

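ChIP-seq libraries for H3K4me3, H3K27me3 and H2AK119ub1 were made from young and aged HSCs after cross-linking and digestion with micrococcal nuclease and sonication. Single reads were aligned to mm10 with Bowtie2, and MACS2 2.2.6 is named in the submitters' processing notes. The authors deposited 1 pooled peak list per mark and age. The names of the H3K4me3 peaks carry a pair of library numbers and those of the broad regions a single number, so whether both replicates entered the broad lists is not certain. In the deposited lists each peak has a fold enrichment (a linear ratio), the −log10 of its p-value and q-value and a score made from the q-value. For broad regions these are averages over the region. The score was not used further. Read depth is not part of the deposited lists.

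Peaks were assigned by overlap of at least 1 bp to windows and promoters of GENCODE M21, using the start sites of basic protein-coding transcripts (21851 genes, 41438 start sites), and 11 peaks on scaffolds were set aside. No column of an unmapped sample was present. Summit reads were solved from fold and p-value (whole reads for 100% of H3K4me3 peaks within 0.01 of the −log10 p-value). Base composition and sequences were read from the RefSeq copy of the assembly, on which all 122016 peaks fell within their chromosomes and 19 of 19 coding transcripts of the 9 genes began with the same bases. Python 3.11.15, numpy 2.4.6, pandas 2.3.3, scipy 1.17.1, pysam 0.24.0 and matplotlib 3.10.9 were used, and the code was tested on simulated data. All 9 genes were named, with at most 6 other genes per member that had the same promoter peaks. Actb, Gapdh, Rpl13a and the further genes of the closing section were named after their values were seen. Alternatives varied promoter and window width, start sites, overlap, q-value and list length. Some values of the related lists are not reported here. The genes and related lists were chosen with earlier results of these data known.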

Additional observations from a re-analysis of the deposited data

How the results depend on the processing

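Of 36 alternative counts of members with a promoter peak, 30 stayed within 1.5 times the reported count, and of 30 counts over windows 19 did. Without peaks below 4 on the −log10 q-value scale, young H3K4me3 fell to 2 promoters and 3 windows, and the Polycomb counts that had been above 0 fell to 0 (young and aged promoters and windows). With the same number of peaks for both ages, young H3K4me3 again gave 2 promoters and 3 windows, young H3K27me3 gave 0 and 0, and aged H2AK119ub1 gave 1 window. With 500 bp either side of a start site, aged H3K4me3 gave 2 promoters. With 20 kb either side of the gene body, H3K27me3 was found at 2 genes (Young) and 1 gene (Aged), and H2AK119ub1 at 2 and 4 genes. The regions that raised these counts lay by Procr and Esam, nearer to the start sites of neighbouring genes for all but the upstream region of Procr. Thy1, already counted, also gained aged H2AK119ub1 regions, which lay nearer to the start site of a neighbouring gene. By construction, fewer peaks or a narrower promoter can only lower such counts, and wider windows can only raise them. Among peaks in windows 16 of 24 alternative counts stayed within 1.5 times, and among related lists 168 of 216. No paired analysis was possible because there is 1 pooled list per mark and age and no result comes from a test. A mark under the threshold of a list cannot be told from an absent mark.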

Other observations

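H3K4me3 was listed at most of 22 other genes known for high expression in HSCs. Of these, 16 had a promoter peak in the young list and 13 in the aged list, beside 33.8% and 23.3% of all genes, among them Mecom, Hlf and Meis1, which encode transcription factors of HSCs, and Tek, which encodes a receptor for angiopoietins. Without peaks below 4 on the −log10 q-value scale the young count was 10 and the aged count 9. With the same number of peaks for both ages the young count was 9 and the aged count stayed at 13. The shares of all genes were not recounted for these cut lists. No promoter of the 22 lay in an H3K27me3 region at either age, beside 16.0% and 8.24% of all genes. H2AK119ub1 was listed at 0 (Young) and 3 (Aged) of the 22 (Adgrg1, Cd9 and Pdzk1ip1, named after their values were seen), beside 1.91% and 14.0% of all genes, and the aged count ranged from 0 to 5 over the alternatives. These genes were listed with earlier results known, and the counts were not tested against those of all genes.

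Other lists of related genes were also counted. Among the 12 antigens of the sort gate, 2 had promoter H3K4me3 in the young list (Cd34 and Ptprc). In the aged list 2 had it (Kit and Ptprc). Kit was lost from the aged list with 500 bp either side, and when at least 50% of the peak had to lie in the promoter. With 2.5 kb either side Kit also had a peak in the young list. Young promoter H3K27me3 was found at 1 of the 12, Flt3, beside 16.0% of all genes. That count was 0 with 500 bp either side, without peaks below 4 on the −log10 q-value scale, and with the same number of peaks for both ages. Of the 12 genes active in most cells, 1 (Pgk1) also had young promoter H3K27me3. Of 21 lineage markers, 0 had promoter H3K4me3 in the aged list. Among them Pax5, which encodes a factor of B cells, had promoter H3K27me3 in both lists. Among 7 SLAM family genes, Ly9 and Cd84 had young H3K4me3 and 0 had aged H3K4me3, and Slamf6 had aged H2AK119ub1. Among 11 Ly6 family genes, Ly6e and Lynx1 had young H3K4me3 and Ly6e had aged H3K4me3. Ly6e also had aged H2AK119ub1, and Ly6h had H3K27me3 at both ages. The shares of all genes given above apply to each of these lists, and none of these counts was tested. Apart from Cd34, Ptprc, Kit, Ly9, Cd84 and Lynx1, the genes of this paragraph were named after their values were seen.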
